A study of Homo sapiens with 9 samples.

Results

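Xenobiotic-metabolising enzymes, the families with which cells oxidise and conjugate drugs, pesticides and other foreign compounds, were followed in NT2 cells exposed to 1 of 2 organophosphorus compounds. The members were taken from the array by name: cytochromes P450 (CYP) of families 1 to 4, flavin-containing monooxygenases (FMO), epoxide hydrolases (EPHX), soluble and membrane-bound glutathione S-transferases (GST and MGST), UDP-glycosyltransferases (UGT) and sulfotransferases (SULT). They came to 95 gene names and 119 probes, of 42405 probes on the array. Of these, 70 probes were bright enough to be tested. Pseudogenes such as GSTM2P1 and FMO6P and the antisense RNA CYP1B1-AS1 carry matching names and were kept. Every member probe was matched to a RefSeq transcript by its accession. Under current naming, GSTTP1 is GSTT4 and SULT1C2P1 is SULT1C5P, and the names of the array's design are used below.

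NT2 is a clonal human embryonal carcinoma line that turns towards neurons under retinoic acid. All cultures received 10 µM retinoic acid. Control cultures received no organophosphate, and the others received 1 µM paraoxon or 5 µM mipafox for 4 days (96 h). Paraoxon is the active oxygen metabolite of the insecticide parathion, and mipafox is an organophosphorus compound known for delayed neuropathy. Each treatment had 3 one-colour arrays, lettered A, B and C, described by the paper as technical and by the series as biological replicates, so that p-values measure the spread between these arrays. The doses of the compounds differed, and the comparisons with each compound share the same 3 control arrays, so their values are given side by side and not tested against each other. The control arrays were on slide 1 together with mipafox A, and mipafox B and mipafox C were on slide 2 with all paraoxon arrays. Paraoxon and control therefore shared no slide, and a difference between them within 1 slide cannot be had.

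Marker genes were checked first. All 9 genes of the pluripotency list (POU5F1, SOX2, NANOG and others) and all 8 of the retinoic acid response list (CYP26A1, RARB, HOXB1 and others) were well above background on all 3 control arrays, as were 6 of the 7 neural genes. In hepatocyte and visceral endoderm genes this held for 2 of 8, APOA1 and SERPINA1, and the probes of TTR, APOA2 and FGB were above background on no array. It also held for 4 of 6 fibroblast and mesoderm genes, 3 of 5 trophoblast genes and 3 of 5 glial genes. Of the 3 blood genes on the array, 2 were above background. A gene counted here if at least 1 of its probes was above background on all 3 control arrays. The second SERPINA1 probe and several probes of the blood gene PTPRC were above background on no array. Genes of other cell types were thus above background too. The summed linear signal of the hepatocyte list relative to the 75th percentile ranged from 0.457 to 0.591 on control, from 0.453 to 0.574 on paraoxon and from 0.465 to 0.572 on mipafox arrays. For the glial list these ranges were 1.462 to 1.724, 1.735 to 1.991 and 1.716 to 1.917. For the blood list they were 0.049 to 0.057, 0.075 to 0.090 and 0.063 to 0.071. Paraoxon thus lay above control in both, and mipafox in the blood list. In the other marker lists the ranges overlapped with control. The PTPRC probe A_33_P3364808 gave a log2 fold change of 1.15 ± 0.21 (SE; limma adjusted p = 0.0764) with paraoxon.

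In textbook terms, the first phase of detoxification adds or uncovers a reactive group and the second joins that group to glutathione, glucuronic acid or sulfate. P450s and FMOs oxidise, epoxide hydrolases open the epoxides that P450s leave behind, and GSTs, UGTs and SULTs conjugate. P450s turn the thiophosphate insecticide parathion into paraoxon, and GSTs can remove alkyl or aryl groups from organophosphates. Most of these enzymes are most abundant in liver, but CYP1B1, CYP2W1, GSTP1 and several others are known from embryonic, tumour or extrahepatic tissue.

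What a probe reports depends on its sequence. The probes are 60 bases long. For the probes with the smallest p in either comparison the middle 30 bases (bases 16 to 45 from the 5′ end) are shown, so that the transcript region behind each value can be seen. Positions are those of the files on hg19, and whether they lie in coding or untranslated parts is not given in the files used here.
CYP1A2 A_33_P3253747, chr15:75048866-75048925, plus strand: actttctgtgtctatggatttgccttctct
CYP4A11 A_33_P3303474, chr1:47394862-47394921, minus strand: cctatattagtttcctattactgctgtaat
CYP2E1 A_24_P394940, chr10:135346267-135346326, plus strand: tgtgtctgaaagggtgaaggagcaccatca
CYP2D6 A_23_P143734, chr22:42523909-42523968, minus strand: tgagaacctgtgcatagtggtggctgacct
SULT1C2 A_23_P51002, chr2:108921954-108922013, plus strand: aatgaaagaaaatcccatgacaaatcgttc
GSTM2 A_33_P3410351, chr1:110212103-110212162, plus strand: tcgcgaagacattttggagaaccagtttat
CYP4F8 A_23_P131060, chr19:15739621-15740029, plus strand: tttctcggcggggcccaggaactgcatcgg
CYP2S1 A_33_P3348782, chr19:41712616-41712675, plus strand: ttccacagacataaatatagtccatctgca
The CYP4F8 probe spans 409 bases of the genome and so crosses an intron. The probe of EPHX2 was the other one in this set.

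The probes of the omega-class transferases GSTO1 and GSTO2 resembled each other. Over the 50 bases by which the GSTO1 and GSTO2 probes overlap when aligned without gaps, 41 were the same. In the stretch shown, capitals mark the 7 bases of 30 that differ.
GSTO1 A_24_P304051, chr10:106025842-106025901, plus strand, bases 12 to 41: tAagaaGacGaccttctttggtggCaATtC
GSTO2 A_23_P202206, chr10:106057346-106057405, plus strand, bases 2 to 31: tCagaaCacCaccttctttggtggAaCCtG

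Another probe carried a sequence found widely on the array. The CYP2W1 probe shared at least 1 word of 16 bases, on either strand, with 17 probes of other names. The CYP2B6 probe A_23_P208373 shared one with 5. Among all probes 0.778% shared a word with 5 or more probes of other names, and among the members 2 of 119 did. The stretch of the CYP2B6 probe below lies wholly in such shared words, which the capitals mark.
CYP2B6 A_23_P208373, chr19:41523525-41523584, plus strand, bases 21 to 50: TTGTATTTTTAGGTGGTCTTGAACTCCTGA

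Many of these enzymes were measured in the control cultures. Of the 95 names, 58 had a probe well above background on all 3 control arrays, 57 had one well above background on all 9 arrays, and 25 had none above background on any array. The share varied by family, as the plot of detection by family shows. All 4 epoxide hydrolases, all 3 microsomal GSTs and 17 of 21 soluble GST names were above background in control, against 10 of 15 CYP2, 7 of 12 UGT, 5 of 12 SULT and 3 of 13 CYP4 names. No member probe was saturated.

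**Figure D1:**
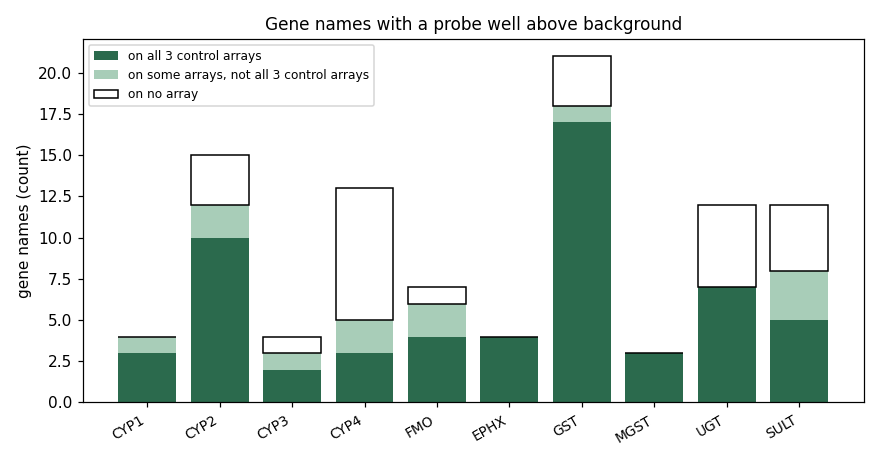
Count of gene names per enzyme family (vertical axis), split into names with a probe well above background on all 3 control arrays, on some arrays but not all 3 control arrays, and on no array. Every EPHX and MGST name was above background in control, while 8 of 13 CYP4 names were above background on no array.

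In the lists below a level is the log2 processed signal minus the 75th percentile of that array, so that 0 is a bright probe and a difference of 1 is 2-fold. Levels of different probes are not compared, because each probe binds with its own strength.

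Among the CYP1 enzymes, which oxidise planar aromatic compounds and are induced through the aryl hydrocarbon receptor, CYP1A1, CYP1A2 and CYP1B1 were above background on all 9 arrays. CYP1A1 stood at -1.61, -1.76 and -1.66 on control A, B and C, at -1.70, -1.71 and -1.97 on paraoxon and at -1.69, -1.74 and -1.58 on mipafox arrays. The brighter CYP1B1 probe (A_23_P209625) stood at 1.25, 1.32 and 1.40 in control, at 1.13, 1.33 and 1.38 with paraoxon and at 1.28, 1.12 and 1.08 with mipafox. In both genes the ranges of the treatments overlapped, and every 95% interval of their log2 fold changes lay within 1 of zero, with or without slide as a block.

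Of the CYP2 enzymes, the broadest family of drug-oxidising P450s, 9 names were above background on all 9 arrays: CYP2A13, CYP2B6, CYP2D6, CYP2F1, CYP2J2, CYP2R1, CYP2S1, CYP2U1 and CYP2W1. CYP2E1, which oxidises ethanol and small solvents, was above background on 8. The CYP2C8 and CYP2C18 probes were above background on none, and those of CYP2C19 and CYP2A7 on 1 array each. The level at the CYP2W1 probe was 7.06, 6.82 and 6.56 in control, 6.60, 6.58 and 7.14 with paraoxon and 6.84, 6.68 and 6.36 with mipafox, with overlapping ranges. What share of that signal came from CYP2W1 itself was not tested. The 9 probes that shared a word with it on the same strand were all above background on all 9 arrays, with log2 fold changes with paraoxon from -0.38 to 1.29. The 8 that shared one on the opposite strand had values from -0.65 to -0.28. CYP2R1, the vitamin D 25-hydroxylase, stood between 1.23 and 1.48 in control, between 1.43 and 1.48 with paraoxon and between 1.08 and 1.64 with mipafox.

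CYP3A4, the main drug-oxidising P450 of adult liver, had a probe above background on no array. CYP3A5 and CYP3A7, the latter being the fetal liver form, each had 1 probe above background on all 9 arrays and another that was not. The CYP3A7 probe A_23_P358917 stood between -5.96 and -5.29 over all 9 arrays. The second CYP3A7 probe (A_33_P3318117), which lies next to it on chromosome 7, was above background on no array, so the 2 probes of this gene disagree about its presence. In the fatty acid hydroxylases of family CYP4, 3 names (CYP4A11, CYP4F8 and CYP4X1) were above background on all 9 arrays, and CYP4V2 on 5.

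FMO1, FMO4, FMO5 and FMO6P were above background on all 9 arrays. FMO9P was above background on mipafox A alone, at -5.47, against values from -9.51 to -8.33 on the other 8 arrays. The epoxide hydrolases were all measured: EPHX1, the microsomal form that acts on many foreign epoxides, EPHX2, the soluble form that acts on fatty acid epoxides, and the less studied EPHX3 and EPHX4. EPHX4 stood between -2.58 and -2.10 over all 9 arrays.

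Glutathione transferases were the most fully represented of the larger families. GSTP1, the pi-class enzyme common in fetal and tumour tissue, stood at 7.87, 7.54 and 7.44 in control, at 7.20, 7.28 and 7.71 with paraoxon and at 8.01, 7.44 and 7.04 with mipafox. Its ranges overlapped. Its 95% intervals lay within 1 of zero without slide in the fit, and with slide as a block they ran from -0.28 to 1.37 with paraoxon and from -0.26 to 1.03 with mipafox. MGST1 lay between 5.25 and 5.48 over all 9 arrays, a range of 0.229, the smallest of the 70 tested member probes. GSTA4, an alpha-class enzyme with activity towards the lipid aldehyde 4-hydroxynonenal, varied little at its brighter probe (A_23_P110941), from 1.95 to 2.21. GSTM1, GSTT1, GSTK1, GSTO1, GSTO2 and GSTZ1 were above background on all 9 arrays as well. GSTA5, GSTA7P and GSTTP2 were above background on none.

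Among the conjugating enzymes that use sugar or sulfate, UGT1A6, UGT2B7, UGT2B10, UGT2B11, UGT3A1, UGT3A2 and UGT8 had a probe above background on all 9 arrays. A second probe of UGT3A1 (A_24_P183334) was above background on none, and one of UGT1A6 (A_24_P222872) on 1. UGT2B7, which conjugates morphine and steroids, stood between -1.93 and -1.79 in control, between -1.84 and -1.29 with paraoxon and between -1.93 and -1.65 with mipafox. The sulfotransferases SULT1A2, SULT1A4, SULT1C2, SULT2B1 and SULT4A1 were above background on all 9 arrays. SULT4A1, a brain sulfotransferase, stood between -0.58 and -0.24 over all 9 arrays at its brighter probe (A_33_P3353345), while its other probe (A_33_P3280367) stood between -6.64 and -5.29 and missed the background limit on 1 paraoxon array. SULT1E1, the estrogen sulfotransferase, and SULT2A1 and SULT1B1, both found in liver or gut, were above background on no array.

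With paraoxon, no enzyme of these families was called changed. To be called, a probe had to differ by more than 1 on the log2 scale, up or down, at a limma adjusted p below 0.05, and 0 of the 70 tested member probes met it, as did 0% of the 29134 probes tested. The smallest adjusted p among members was 0.17. At the same stated limits, after its own normalisation and filtering, the paper reports genes altered with paraoxon. Without mipafox A in the fit 276 probes were called with paraoxon and without mipafox B 77 were, 0 of them members. At an unadjusted p under 0.05, 4 member probes were higher with paraoxon (CYP1A2, CYP4A11, CYP2D6 and SULT1C2) and 3 lower (CYP2E1, GSTM2 and CYP2S1). These are 5.71% and 4.29% of the 70, beside 7.31% of all tested probes higher and 6.02% lower, so the members' shares were not above the background. The median log2 fold change of the members was -0.00, and that of all tested probes 0.01.

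P450 probes were among those with the smallest p. CYP1A2, which oxidises caffeine and aromatic amines, stood at -4.23, -4.52 and -4.58 on control A, B and C, at -3.76, -3.92 and -3.67 on paraoxon and at -4.28, -3.63 and -4.03 on mipafox arrays. All 3 paraoxon arrays lay above the control arrays, and mipafox A lay within the control range while mipafox B and C lay above it. The log2 fold change was 0.66 ± 0.19 (SE) with paraoxon (limma adjusted p = 0.17) and 0.46 ± 0.19 with mipafox (adjusted p = 0.685). Under normexp background correction these were 0.41 and 0.37, in the authors' processed values 0.41 and 0.25, and without mipafox B the mipafox value was 0.29.

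CYP4A11, a fatty acid omega-hydroxylase, showed the same order at its probe A_33_P3303474: -5.77, -6.24 and -6.32 in control, -5.56, -5.41 and -5.12 with paraoxon, and -6.02, -5.39 and -5.53 with mipafox. Its log2 fold change was 0.75 ± 0.22 (SE) with paraoxon (limma adjusted p = 0.183) and 0.46 ± 0.22 with mipafox (adjusted p = 0.757). Under normexp background correction these were 0.23 and 0.27, and in the authors' processed values 0.30 and 0.15. A second probe of CYP4A11 was above background on 1 control, 2 paraoxon and 1 mipafox arrays and was not tested.

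CYP2D6, which oxidises many basic drugs, stood at -4.83, -5.24 and -5.02 in control and at -4.63, -4.29 and -4.58 with paraoxon at its probe A_23_P143734. Mipafox arrays gave -5.25, -4.72 and -4.83. The paraoxon values lay above the control values, by 0.53 ± 0.19 (SE; limma adjusted p = 0.259), and the mipafox values overlapped with control, with a log2 fold change of 0.10 ± 0.19 (adjusted p = 0.971). Its second probe, which crosses an exon junction, overlapped between paraoxon and control.

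CYP2E1 went the other way, from -5.29, -5.61 and -5.41 in control to -5.67, -6.05 and -6.26 with paraoxon, against -5.46, -5.60 and -5.52 with mipafox. On 1 of the 3 paraoxon arrays its probe was not well above background. All 3 paraoxon values lay below the control values, and the log2 fold change was -0.55 ± 0.17 (SE; limma adjusted p = 0.21), against -0.09 ± 0.17 with mipafox (adjusted p = 0.971). The paraoxon value was -0.064 under normexp background correction, -0.12 in the authors' processed values and -0.27 with array weights. CYP2S1, an extrahepatic P450, stood at -1.62, -2.13 and -1.88 in control, at -2.20, -2.22 and -2.54 with paraoxon and at -2.24, -2.14 and -1.99 with mipafox at the probe A_33_P3348782. The paraoxon values were the lower ones, by -0.44 ± 0.17 (SE; limma adjusted p = 0.306), and mipafox gave -0.25 ± 0.17 (adjusted p = 0.853). At the other CYP2S1 probe (A_23_P101374) the values were -0.48, -1.17 and -0.85 in control and -0.84, -1.05 and -0.63 with paraoxon, and these ranges overlapped.

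In the conjugating enzymes, SULT1C2, a phenol sulfotransferase known from fetal tissue, stood at -1.94, -1.63 and -1.65 in control, at -1.33, -1.43 and -1.34 with paraoxon and at -1.55, -1.35 and -1.48 with mipafox (probe A_23_P51002). All arrays of both treatments lay above all control arrays. The log2 fold changes were 0.37 ± 0.14 (SE; limma adjusted p = 0.284) and 0.28 ± 0.14 (adjusted p = 0.766). Its second probe (A_33_P3245238) lay above control on all paraoxon arrays and overlapped with control on mipafox arrays.

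GSTM2, a mu-class transferase, stood at -2.02, -2.52 and -2.66 in control, at -2.69, -3.02 and -2.99 with paraoxon and at -2.56, -2.37 and -2.39 with mipafox (probe A_33_P3410351). The paraoxon values lay below the control values by -0.50 ± 0.19 (SE; limma adjusted p = 0.288), with mipafox at -0.04 ± 0.19 (adjusted p = 0.989). Without control A the paraoxon value was -0.31. The groups at the other GSTM2 probe overlapped.

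**Figure D2:**
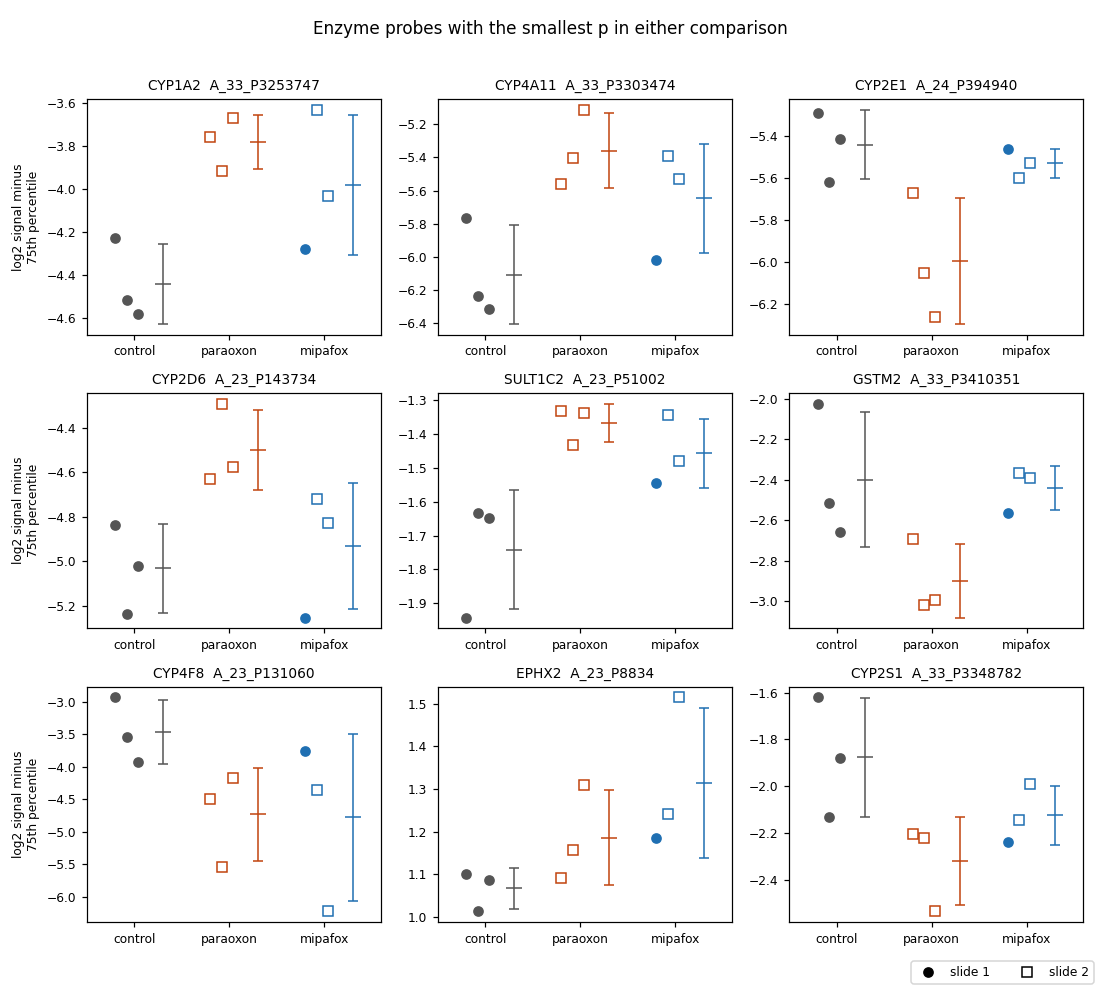
Level of the 9 member probes with the smallest p in either comparison (vertical axis, log2 processed signal minus the array's 75th percentile), 1 panel per probe. Points are single arrays, filled circles for slide 1 and open squares for slide 2, and the bar beside them is the mean ± SD (n = 3); for CYP1A2, CYP4A11 and CYP2D6, mipafox A on slide 1 lies below mipafox B and C on slide 2.

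Counted over all tested members, all 3 paraoxon arrays lay above all 3 control arrays at 6 probes and below them at 5. These are 8.57% and 7.14% of the 70, beside 12.4% and 11.1% of all 29134 tested probes. Besides the probes above, this took in GSTA2 and both SULT1C2 probes on the higher side, and CYP4F8 and GSTM1 on the lower.

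With mipafox, 0 of the 70 member probes and 0% of all tested probes were called, and the smallest adjusted p among members was 0.685. Without mipafox A 76 probes were called, 0 of them members. At an unadjusted p under 0.05 a single member, CYP1A2, was higher, 1.43% of the 70, and 0 were lower, beside 2.96% and 4% of all tested probes. The 3 mipafox arrays lay above all 3 control arrays at EPHX2, SULT1A4 (A_24_P262201) and SULT1C2, 4.29% of the members, and below them at the GSTK1 probe A_23_P20107, 1.43%. Over all tested probes these shares were 5.34% and 6.46%. The median log2 fold change was 0.03 over the members and 0.00 over all tested probes.

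EPHX2 stood at 1.10, 1.01 and 1.09 in control and at 1.19, 1.24 and 1.52 with mipafox, with paraoxon at 1.09, 1.16 and 1.31. All mipafox arrays lay above all control arrays, and paraoxon C lay above mipafox A and B. The log2 fold change with mipafox was 0.25 ± 0.14 (SE; limma adjusted p = 0.818). With paraoxon it was 0.12 ± 0.14 (adjusted p = 0.795).

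CYP4F8, a P450 known from seminal vesicles that hydroxylates prostaglandins, had the largest difference and also the largest spread of the tested members. It stood at -2.93, -3.54 and -3.92 in control, at -4.50, -5.54 and -4.17 with paraoxon and at -3.75, -4.35 and -6.23 with mipafox. All paraoxon arrays were below control, and mipafox A fell within the control range. The log2 fold changes were -1.27 ± 0.60 (SE) with paraoxon (limma adjusted p = 0.409) and -1.32 ± 0.60 with mipafox (adjusted p = 0.731). Over the 9 arrays it ranged by 3.30, against a median of 0.671 for the tested members and 0.81 for all tested probes. Without mipafox C its mipafox value was -0.59.

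How far the members were bounded depended on the slide term. Without it, and with paraoxon, the 95% interval of the log2 fold change lay within 1 of zero, that is within a 2-fold change, at 65 of the 70 member probes. The exceptions were CYP1A2, CYP4A11, CYP4F8, FMO1 and UGT8. With mipafox it did so at 69, CYP4F8 being the exception. Over all tested probes 77.5% and 82.2% were bounded in this way. With slide as a block the interval lay within 1 of zero at 39 of the 70 member probes with paraoxon and 58 of 70 with mipafox. Of all tested probes 38.9% and 65.6% were so bounded. In both fits these are smaller shares than among the members. The median distance from the fold change to the end of its interval was 0.405 over the members in both comparisons without the slide term, and 0.726 and 0.569 with it. The plot of fold changes with their intervals shows the 70 probes in the order of their paraoxon values.

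**Figure D3:**
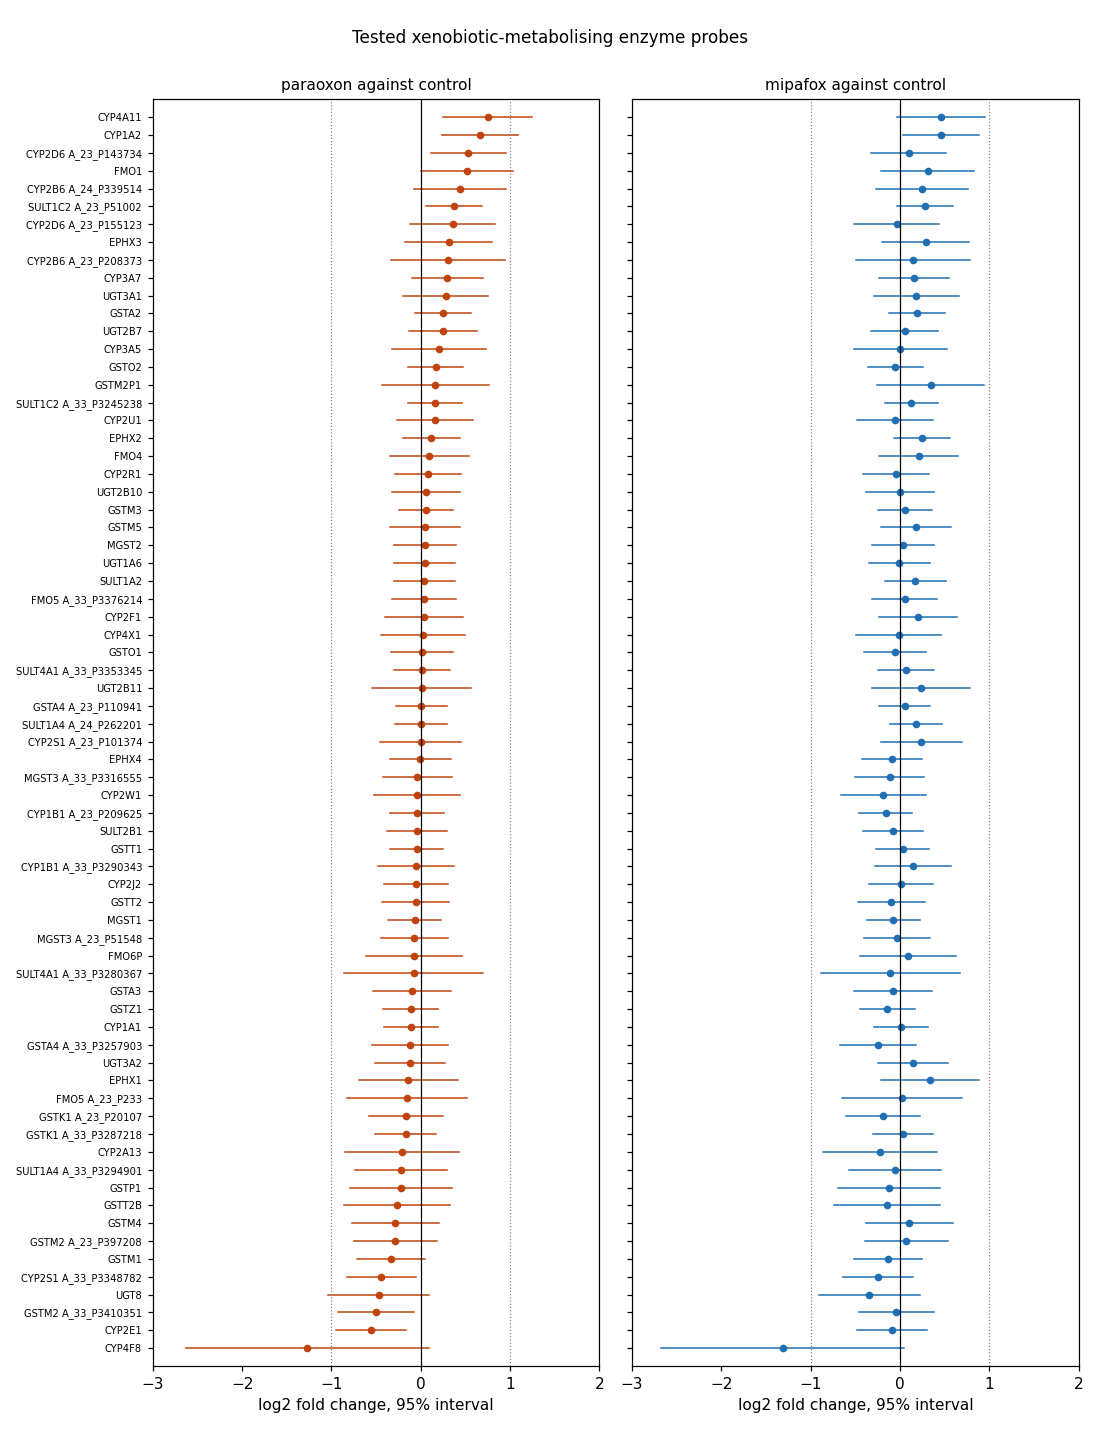
Log2 fold change (point) with its 95% limma interval (line) of the 70 tested member probes, 1 row each, for paraoxon (left) and mipafox (right) against control; the dotted lines mark -1 and 1. Slide is not a term in this fit, in which intervals of 65 probes on the left and 69 on the right lie between the dotted lines.

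By family, the fold changes with paraoxon ran from -0.11 to 0.66 in 4 CYP1 probes, from -0.55 to 0.53 in 13 CYP2 probes, from -0.15 to 0.52 in 5 FMO probes and from -0.14 to 0.31 in 4 EPHX probes. Of 20 GST probes 13 were below 0 and 7 above, with a median of -0.11, and 1 of them passed an unadjusted p under 0.05. The 4 MGST probes ran from -0.07 to 0.05, the 7 UGT probes from -0.47 to 0.28 and the 8 SULT probes from -0.22 to 0.37. With mipafox the medians were 0.27 for EPHX, 0.10 for SULT, 0.09 for FMO and -0.05 for GST probes, and no GST, UGT, SULT, FMO or EPHX probe passed an unadjusted p under 0.05.

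Several mu-class probes were higher on control A than on control B and C, a pattern noticed after their values were seen. At 5 of the 7 GSTM probes control A lay more than 0.4 above the mean of control B and C: GSTM1, both GSTM2 probes, GSTM2P1 and GSTM4. This is 71.4%, beside 21.4% of the tested members and 24% of all tested probes. GSTM4 stood at -0.00, -0.74 and -0.66 on control A, B and C, at -0.70, -0.86 and -0.69 with paraoxon and at -0.61, -0.36 and -0.11 with mipafox. GSTM3, the mu-class enzyme of brain and testis, stood at 2.24, 2.18 and 2.15 in control and did not share the pattern. EPHX1, outside this class, did, at -1.26, -2.04 and -1.76 in control, and at -1.80, -1.23 and -1.03 with mipafox.

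**Figure D4:**
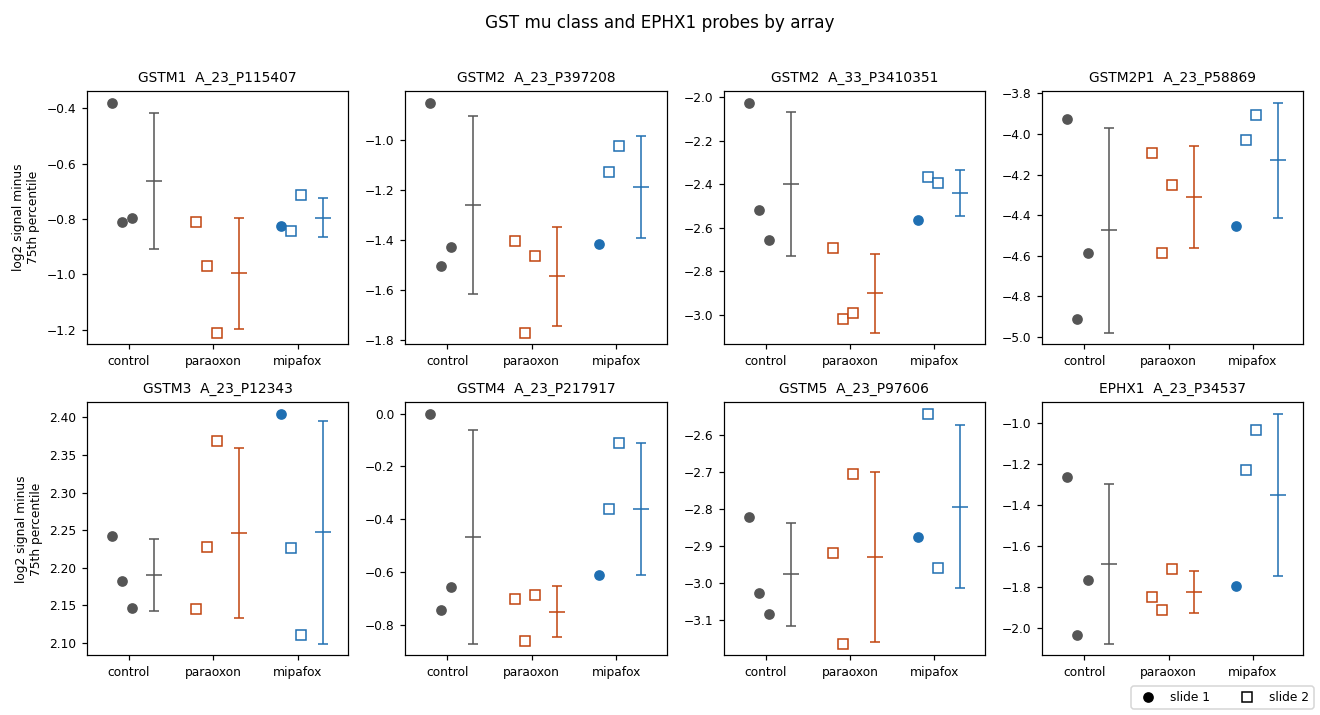
Level of the 7 GSTM probes and of EPHX1 (vertical axis, log2 processed signal minus the array's 75th percentile) by treatment, with filled circles for slide 1 and open squares for slide 2 and the mean ± SD (n = 3) beside them. Control A is the highest control array in all 8 panels, over 0.4 above the mean of the other 2 in all but GSTM3 and GSTM5.

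The slides moved with many of these values. When slide was added to the fit as a block, the mipafox value became the difference between mipafox A and the 3 control arrays that shared its slide, and paraoxon was tied to control through the mipafox arrays. The log2 fold change with paraoxon was then 0.22 ± 0.29 (SE) for CYP1A2, 0.19 ± 0.34 for CYP4A11 and 0.05 ± 0.28 for CYP2D6. These were the 3 probes with the largest values above 0 before, and mipafox B and C on slide 2 exceeded mipafox A by 0.44, 0.56 and 0.48 at them. For CYP4F8 the paraoxon value turned to 0.27 ± 0.96, and mipafox B and C lay below mipafox A by -1.54. CYP2E1 gave -0.45 ± 0.32, GSTM2 -0.69 ± 0.34 and CYP2S1 -0.62 ± 0.31, each with its sign unchanged.

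Of the 70 member probes, 22 changed sign with the slide term in each comparison. Over all tested probes 36.8% did with paraoxon and 33.8% with mipafox. The median of all tested probes moved from 0.01 to 0.10 with paraoxon, and that of the members from -0.00 to 0.10. An unadjusted p under 0.05 was reached by UGT8 (-1.04 ± 0.41), CYP2U1 (0.75 ± 0.24) and CYP2R1 (0.54 ± 0.23) with paraoxon, all at a limma adjusted p of 0.613, and by no member with mipafox. These are 2.86% of the members higher and 1.43% lower with paraoxon, beside 4.16% and 3.86% of all tested probes in the same fit, and with mipafox all tested probes gave 1.87% and 3.61%. UGT8, CYP2U1 and CYP2R1 are named here after their values were seen. The slide term rests on mipafox A against mipafox B and C. A trait of mipafox A alone therefore cannot be told apart from a slide difference. Mipafox A was the dimmest array by its 75th percentile, at 802 in linear signal, with paraoxon C close to it at 818. Whether the slide, mipafox A itself or the treatment set these values was not tested.

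**Figure D5:**
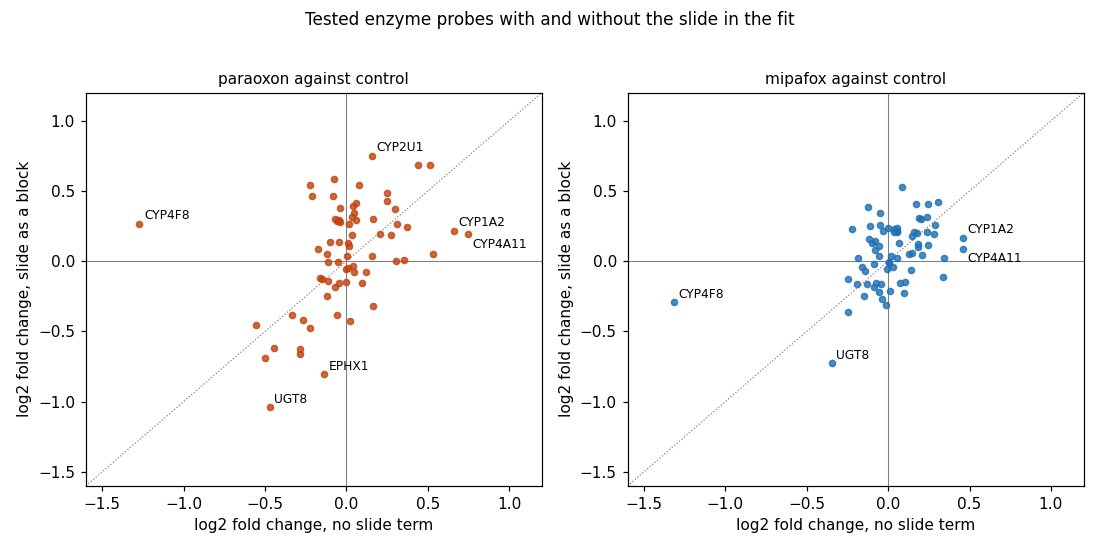
Log2 fold change of the 70 tested member probes with slide as a block (vertical axis) against the value without it (horizontal axis), for paraoxon (left) and mipafox (right) against control; the dotted line marks equal values. CYP1A2 and CYP4A11 lie near 0.2 on the vertical axis with paraoxon, and CYP4F8 moves from -1.27 to 0.27.

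Where a gene had 2 tested probes, they could be set against each other. In 12 such genes the signs agreed in 8 with paraoxon and in 4 with mipafox, and the largest gaps between the fold changes of a gene's probes were 0.44 and 0.49, both at CYP2S1. At SULT1C2 both probes were higher with paraoxon, at 0.37 and 0.16. With slide as a block these were 0.24 ± 0.24 (SE) and 0.04 ± 0.23.

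The partners of these enzymes were counted from lists of the same pathways. Of 5 genes that pass electrons to P450s (among them POR, the P450 reductase), all 5 were above background in control. One of their 7 tested probes was lower with paraoxon at an unadjusted p under 0.05, beside 6.02% of all tested probes. It was a CYB5R3 probe (A_24_P100277), at -0.72 ± 0.19 (SE, limma adjusted p = 0.14) and at -0.38 with slide as a block. The other CYB5R3 probe (A_23_P502224) gave -0.13 ± 0.22 (limma adjusted p = 0.874), and 0.53 with slide as a block. Of 11 sensors and regulators, 7 were above background in control. On no array were 2 of them above background, NR1I2, the xenobiotic receptor PXR, being 1 of these. Of 9 tested probes 1 was lower at an unadjusted p under 0.05 with each compound, beside 6.02% and 4% of all tested probes, and it was the same one, for AHR, the aryl hydrocarbon receptor that drives CYP1 genes.

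The AHR gene had 2 probes, whose starts lie 2236 bases apart in the genome and which share no word of 16 bases with probes of other names. The middle 30 bases of both are shown because their values disagreed.
AHR A_33_P3316800, chr7:17382763-17382822, plus strand: aagttcacatggaggcattgatgcatgcta
AHR A_23_P215566, chr7:17384999-17385058, plus strand: aatatctctgagttctgtgtattttcagtc
At A_33_P3316800 the level was -3.43, -3.36 and -3.43 in control, -4.14, -4.39 and -4.28 with paraoxon and -4.24, -4.33 and -4.14 with mipafox. All 6 treated arrays lay below all control arrays, mipafox A on slide 1 included. The log2 fold changes were -0.86 ± 0.13 (SE; limma adjusted p = 0.0733) with paraoxon and -0.83 ± 0.13 (adjusted p = 0.279) with mipafox, and with slide as a block they were -0.87 and -0.83. Neither met the call. At A_23_P215566 the level was -1.79, -1.26 and -1.28 in control, -1.23, -1.04 and -1.52 with paraoxon and -1.78, -1.61 and -1.28 with mipafox, with overlapping ranges. Its log2 fold changes were 0.18 ± 0.21 (adjusted p = 0.798) and -0.12 ± 0.21 (adjusted p = 0.969). Of the CYP1 genes, CYP1A1 and CYP1B1 overlapped between treatments and CYP1A2 had values above 0, as given above. AHR was singled out from its list after its values were seen.

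All 10 genes that supply glutathione, glucuronic acid and sulfate donors were above background in control. Of their 11 tested probes 2 were higher with paraoxon at an unadjusted p under 0.05, beside 7.31% of all tested probes. GCLM, the modifier subunit of the enzyme that limits glutathione synthesis, gave 0.97 ± 0.23 (SE; limma adjusted p = 0.112) and 0.42 with slide as a block, and its probe is 1 of the 9 that shared a word with the CYP2W1 probe on the same strand. The paper lists GCLM among the genes altered with paraoxon. SLC7A11, a cystine transporter, gave 0.35 ± 0.15 (adjusted p = 0.348). In 16 other conjugating and oxidising enzymes (NQO1, NAT1, TPMT and others), 6 export pumps (ABCB1, ABCG2 and others) and the 3 retinoid-clearing CYP26 genes, no tested probe reached an unadjusted p under 0.05 with paraoxon. With mipafox 1 probe of the other enzymes did, that of the acetyltransferase NAT2, at -0.39 ± 0.15 (SE; limma adjusted p = 0.626), and 0 in the supply, electron donor, pump and CYP26 lists. No probe of these lists was called in either comparison.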

How the data were processed

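RNA of NT2 cells was labelled in 1 colour and hybridised to 9 Agilent arrays, 3 per treatment. Per the labels, the authors extracted the spots with Agilent Feature Extraction 10.5.1.1, and the deposited processed and mean signals are intensity values on a linear scale. The deposited series table holds the authors' processed log2 values and served as an alternative.

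Levels were computed as log2 of the processed signal minus the 75th percentile of the array's 58717 non-control spots. Spots carrying an outlier flag were dropped, and the remaining ones were averaged by probe. A probe was well above background on an array if at least 0.5 of its kept spots were. Between 65.7% and 73.6% of the 42405 probes were so on each array, and precision is limited by having 3 arrays per treatment. Testing covered the 29134 probes that passed this limit on all arrays of 1 treatment or more and kept 2 or more values in each treatment, with limma 3.58.1 in R 4.3.3 over all 9 arrays with Benjamini-Hochberg adjustment. Scaling to the 75th percentile fixes the overall level of an array, so every difference is relative to it. The fit was checked on simulated arrays.

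Members and lists were chosen with earlier results of these data known. Member probes described one by one with fold changes are mainly the 6 tested ones with the smallest p in each comparison. Any called probe was to be added, and there were 0. Levels are given for genes of a listed set. Further genes were picked by their results, which the text states for some of them only. Among those without such a statement, CYB5R3, GCLM, SLC7A11 and NAT2 were picked for an unadjusted p under 0.05. FMO9P was picked for its value on mipafox A. The shared words of 16 bases were searched over all probe sequences of the files, on both strands, between probes of different names. Sequences are the array's own probes, with hg19 coordinates as the files give them. Alternatives were the normalisation, background correction, authors' values, dim-probe filter, outlier flags, slide or replicate letter as a block, arrays in the fit, variance model, array weights, thresholds and each array left out. Arrays with the same letter were checked for pairing by the correlation of deviations from the treatment means. Over the 9 pairs with the same letter across treatments it ran from -0.60 to 0.57. Over the 18 pairs with different letters it ran from -0.59 to 0.66, so the letters were not taken to pair the arrays. A few genes and 1 probe sequence are not reported here.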

Additional observations from a re-analysis of the deposited data

How the results depend on the processing

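The count of called member probes was 0 in both comparisons under all the alternatives that the methods name, leave-one-out fits included (lowest 0, highest 0). With the replicate letter as a block, although the letters did not pair the arrays, it was 0 and 0, and 6 members with paraoxon and 1 with mipafox had an unadjusted p under 0.05, against 7 and 1 without it. An alternative added after the data were seen, array weights with an adjusted p under 0.05 and no fold change limit, gave 6 member probes with paraoxon and 15 with mipafox, beside 12.2% and 31.9% of all tested probes, and 0 of them lay beyond a log2 fold change of 1. The weights ran from 0.27 to 5.40. With them CYP1A2 stood at 0.74 and 0.83, CYP4A11 at 0.74 and 0.80, CYP2D6 at 0.57 and 0.38 and SULT1C2 at 0.31 and 0.30 with paraoxon and mipafox. Over the alternatives the adjusted p of CYP1A2 ran from 0.00773 to 0.812 and from 0.00229 to 1. Among all probes the count called with paraoxon was 0, against 276 with only paraoxon and control in the fit, 276 without mipafox A, 77 without mipafox B, 1 without mipafox C, 1 with slide as a block and 627 with array weights. With mipafox it was 0, against 76 without mipafox A, 6 with slide as a block and 1024 with array weights. The 58 names above background in control became 62 when 2 of 3 arrays were enough and 73 with the scanner's positive and significant flag.

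Of 306 fold changes of the 9 named probes under alternatives, 12 turned sign. With slide as a block these were CYP4F8 (0.27) and EPHX2 (-0.073) with paraoxon and CYP2D6 (-0.22) with mipafox. With mipafox, CYP2E1 turned under normexp (0.15) and the authors' values (0.019), and GSTM2 under normexp (0.030), the authors' values (0.0041) and array weights (0.15). Leaving out 1 array, CYP2D6 with mipafox ran from -0.0090 to 0.26 and was below 0 without control B (-0.0046) or mipafox B (-0.0090), and GSTM2 ran from -0.17 to 0.15 and was above 0 without control A (0.15) or mipafox A (0.02). Among values that kept their sign, CYP2D6 with paraoxon was 0.22 under normexp, and CYP4F8 was -0.65 and -0.57 under normexp and -0.74 and -0.67 in the authors' values with paraoxon and mipafox. The cause was not tested. Signal over background limits the dim probes, and 49 of the 119 member probes were too dim to test.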

Other observations

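On single arrays a few untested probes were well above background while the other 8 arrays were not, and these were chosen after their values were seen. SULT6B1 (A_33_P3405980) was so on paraoxon C, at -5.80, against values from -9.40 to -7.06 on the other arrays. CYP4F22 was so on mipafox A, at -5.86, against values from -8.75 to -6.78. The GSTTP1 probe A_23_P29163 was so on control C, at -6.74, against values from -9.41 to -7.20. With 1 array each, these values have no replicate check.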
